A study of Mus musculus with 9 samples.

Results

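H3K27me3 intervals were compared between Dnmt3a R878H and wild-type progenitors of mouse bone marrow that had received vehicle. The comparison rests on 4 chromatin immunoprecipitation sequencing libraries, WT VEH 1 and 2 and RH VEH 1 and 2, of 9 samples in the series. A region or a protein-coding gene span was called in a library where one of that library's intervals overlapped it by at least 1 bp, and it separated the groups where its calls were 2 in the libraries of a group and 0 in those of the other. By this rule 547 of the 14064 merged regions called in at least 1 vehicle library separated the groups (18556 regions exist over all libraries), and so did 222 of 7831 called genes (of 21887). The cells were lineage-negative and c-Kit-positive, were taken fresh from female mice on C57BL/6 that had been transplanted, and followed 1 month of vehicle. WT cells were Dnmt3a+/+ and RH cells carried Dnmt3afl-R878H/+, an allele that a Cre recombinase switches to the mutant form, and both were crossed to Mx1-cre. The labels do not give the donor share of the marrow, whether Cre was induced or in what share of cells, or whether mice were pooled, and H3K27me3 intervals cannot check the genotype.

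H3K27me3 is placed by Polycomb repressive complex 2 and marks genes that are kept silent, above all developmental regulators of other tissues with CpG-rich promoters. DNMT3A is the de novo DNA methyltransferase of blood stem cells, and the mouse R878H change corresponds to the arginine substitution most often seen in clonal hematopoiesis and acute myeloid leukemia. DNA methylation and H3K27me3 often occupy different CpG-rich sequences, so a change in DNA methylation can go with a change in where Polycomb marks lie.

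The promoters of 7 genes are shown first as cases of blood and immune genes and of a tall interval in each direction, with Dntt as a case of low summits. Each line gives the 250 bases before the annotated start, 5′ to 3′ on the gene's own strand, from RefSeq on GRCm38.p6, the assembly behind mm10, with every CG dinucleotide in capitals.
Kit: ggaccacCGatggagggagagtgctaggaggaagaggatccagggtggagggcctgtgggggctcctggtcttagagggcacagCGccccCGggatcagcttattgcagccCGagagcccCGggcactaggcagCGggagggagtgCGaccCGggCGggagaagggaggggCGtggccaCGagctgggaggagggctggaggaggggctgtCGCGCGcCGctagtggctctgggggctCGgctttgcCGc
Csf3r: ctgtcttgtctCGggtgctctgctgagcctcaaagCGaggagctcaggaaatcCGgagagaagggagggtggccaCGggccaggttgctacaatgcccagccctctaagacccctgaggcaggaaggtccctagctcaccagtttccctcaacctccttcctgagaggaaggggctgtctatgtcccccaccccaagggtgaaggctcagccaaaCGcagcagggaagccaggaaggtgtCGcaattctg
Mpo: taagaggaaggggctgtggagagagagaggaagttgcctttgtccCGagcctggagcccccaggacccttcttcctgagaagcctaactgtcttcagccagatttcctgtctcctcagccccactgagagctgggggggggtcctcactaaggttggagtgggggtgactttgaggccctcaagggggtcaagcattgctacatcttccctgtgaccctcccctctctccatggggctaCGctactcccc
Fut4: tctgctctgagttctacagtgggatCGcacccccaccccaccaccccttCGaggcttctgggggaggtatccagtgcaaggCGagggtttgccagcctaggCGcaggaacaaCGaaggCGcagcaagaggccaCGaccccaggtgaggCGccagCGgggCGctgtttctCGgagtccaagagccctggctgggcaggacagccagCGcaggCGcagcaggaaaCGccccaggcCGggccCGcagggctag
Il4ra: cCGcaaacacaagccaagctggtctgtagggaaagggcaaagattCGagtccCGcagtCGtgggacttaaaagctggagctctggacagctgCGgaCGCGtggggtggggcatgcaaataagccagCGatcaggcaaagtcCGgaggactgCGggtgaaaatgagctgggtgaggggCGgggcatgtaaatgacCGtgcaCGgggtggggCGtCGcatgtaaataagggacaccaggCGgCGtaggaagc
Odf3b: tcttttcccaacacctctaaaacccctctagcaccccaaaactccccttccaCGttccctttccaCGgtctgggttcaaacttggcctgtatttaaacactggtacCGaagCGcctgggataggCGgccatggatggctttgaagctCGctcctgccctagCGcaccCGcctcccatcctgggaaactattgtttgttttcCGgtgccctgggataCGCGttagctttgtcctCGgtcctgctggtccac
Dntt: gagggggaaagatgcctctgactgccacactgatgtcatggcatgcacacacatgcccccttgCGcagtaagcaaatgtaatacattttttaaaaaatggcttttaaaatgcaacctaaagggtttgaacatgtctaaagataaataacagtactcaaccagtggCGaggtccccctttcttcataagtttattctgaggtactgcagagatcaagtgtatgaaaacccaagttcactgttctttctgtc
The Kit window (chr5:75574737-75574986, plus strand) holds 17 CG, the Csf3r window (chr4:126024409-126024658, plus strand) 6, the Mpo window (chr11:87793534-87793783, plus strand) 2 and the Fut4 window (chr9:14752123-14752372, minus strand) 16. These 4 windows lay wholly under an interval in both WT VEH libraries and had no covered base in RH VEH. The Il4ra window (chr7:125552021-125552270, plus strand) holds 17 CG and the Odf3b window (chr15:89379255-89379504, minus strand) 12, and both were wholly covered in both RH VEH libraries and uncovered in WT VEH. The Dntt window (chr19:41029025-41029274, plus strand) holds 2 CG and had no covered base in any vehicle library, since the RH VEH intervals began inside the gene. CG, which reads the same on both strands, occurs at least 1 time in 92.7% of the same window of 17492 genes, with a median of 10.

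More regions and genes carried the mark in wild type alone than in R878H alone. Of the other 2 ways to pair the same 4 libraries, which cut across genotype, one was more uneven in regions and genes and the other nearer to even. WT VEH alone held 462 regions (3.28%) and RH VEH alone 85 (0.604%). On gene spans the counts were 188 (2.40%) and 34 (0.434%), and on promoter windows, which run from 250 bases before to 50 after each annotated start, 126 (2.45%) and 16 (0.311%) of 5143. The number 2 libraries of both groups held 949 regions (6.75%) and 241 genes that the number 1 libraries lacked, and the reverse counts were 54 and 20. WT VEH 1 with RH VEH 2 held 189 regions and 137 genes against 209 and 74 for WT VEH 2 with RH VEH 1. Such counts are descriptions, since 2 libraries against 2 allow no exact permutation p below 0.333.

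The interval lists also differed in length. RH VEH 1 covered 80.0 Mb with 11620 intervals, while WT VEH 1, WT VEH 2 and RH VEH 2 covered 142, 145 and 155 Mb with 12009, 16259 and 13339. Mean covered length was 143 ± 2.14 Mb in WT VEH and 118 ± 53.1 Mb in RH VEH (SD, n = 2 each, exact permutation p = 1.00, two-sided), and the lower group mean came from RH VEH 1. With every list cut to its 11620 highest summits, 302 regions remained to WT VEH alone and 158 to RH VEH alone, with 161 and 43 genes, and the crossing pairs ran from 135 to 353 regions. When each list was cut to the highest summits that fill 80.0 Mb, 16 regions remained to WT VEH alone and 101 to RH VEH alone, and both groups had 55 genes. The pair WT VEH 2 and RH VEH 1 then held 511 regions and 274 genes of its own. The excess in WT VEH thus held at equal interval number and did not at equal covered length. Equal interval number still left RH VEH 1 at 80.0 Mb and the others at 122 to 144 Mb. The pairs without RH VEH 1 then held 302, 332 and 353 regions, and the pairs with it 135, 145 and 158. In genes, WT VEH 1 with RH VEH 2, which crosses genotype, held 188 against 161 for WT VEH alone. Equal covered length left all 11620 intervals of RH VEH 1, down to a height of 5, and 5133 to 6186 in the others, down to 17 to 18, which favours pairs that include RH VEH 1. RH VEH 1 also had the lowest median summit height, 12 against 14 to 15. The absence of an interval does not show absence of the mark, because read depth is unknown and a signal below the caller's limit leaves no interval. In a bulk library, fewer marked cells and less mark per cell cannot be told apart.

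**Figure D1:**
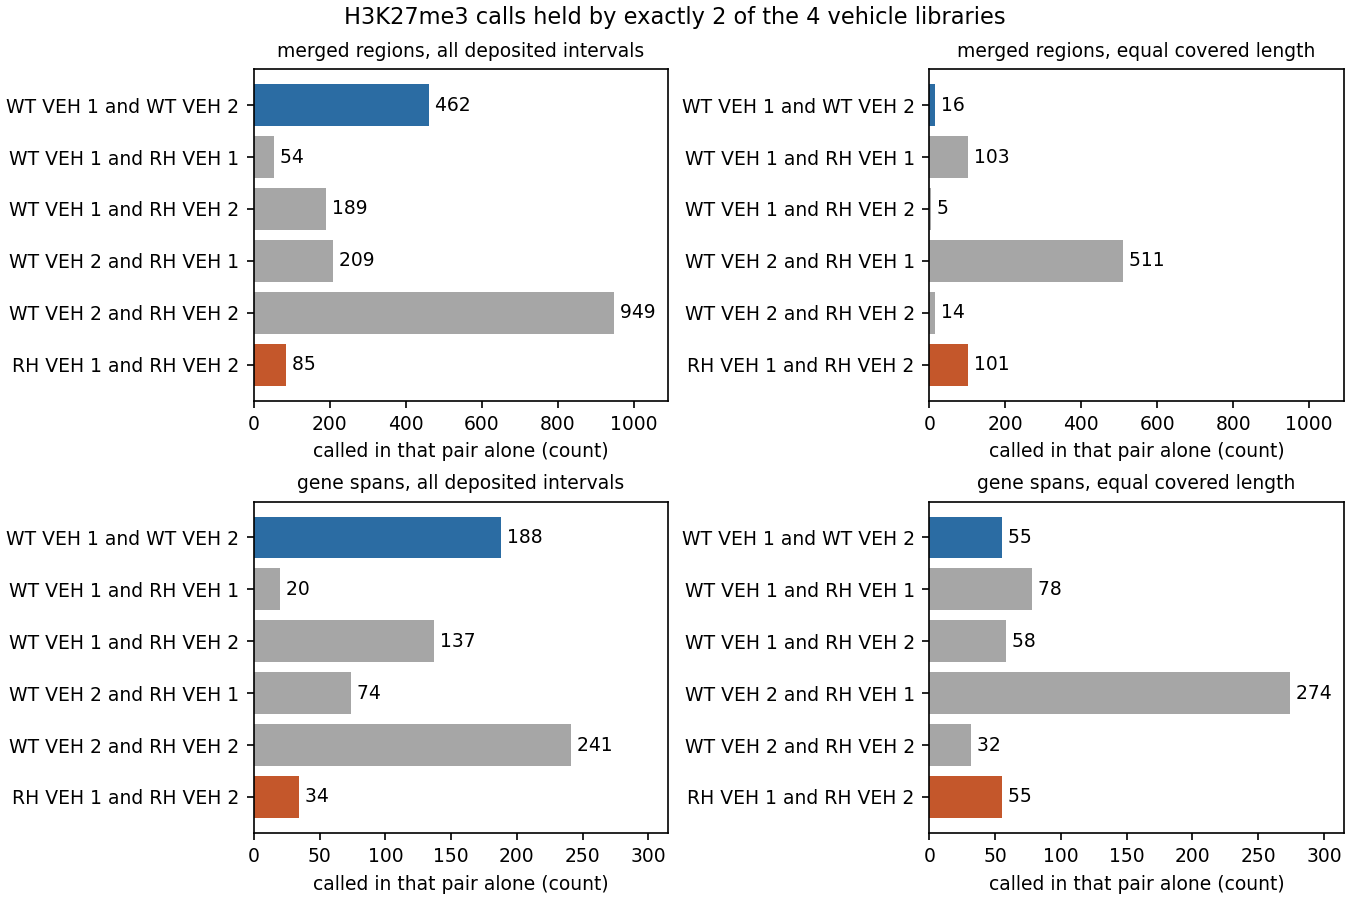
Counts of merged regions (top) and gene spans (bottom) called in exactly 2 of the 4 vehicle libraries, for all deposited intervals (left) and for lists cut to the same covered length (right). Blue and orange bars are the genotype split and gray bars the pairs that cross genotype. With all intervals the pair of number 2 libraries held 949 regions against 462 for WT VEH, and with equal covered length the longest bar was WT VEH 2 with RH VEH 1, at 511.

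Receptors of blood growth factors and cytokines were among the genes marked in wild type alone. Kit encodes the stem cell factor receptor, the surface protein used to enrich the cells. Its span (chr5:75574987-75656722) was covered over 7.11% and 7.36% in WT VEH 1 and 2 and over 0% in both RH VEH libraries. The intervals ran from chr5:75573801 to 75580800 in WT VEH 1 and from chr5:75572801 to 75581000 in WT VEH 2, across the start of the gene, and stood at percentiles 25.1 and 63.3 of summit height in their own lists. The nearest RH VEH interval lay 173 kb from the gene. Csf3r encodes the receptor for granulocyte colony-stimulating factor. It was covered over 40.9% and 10.2% in WT VEH and over 0% in RH VEH, again across an annotated start, at percentiles 40.7 and 61.2.

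Other receptors were also marked in wild type alone. Il20ra, a subunit of interleukin 20 receptors, was covered over 4.96% and 5.64% in WT VEH and 0% in RH VEH. Oprm1 and Oprl1 encode the mu opioid and the nociceptin receptor. Oprl1 was covered over 100% and 70.2% in WT VEH, and Oprm1, a much longer gene, over 1.29% and 1.5%, with 0% in RH VEH for both. Of 25 called members of the list of other cytokine receptors, Csf3r alone separated the groups, and of 28 called receptor tyrosine kinases Kit alone did. Over all called genes the shares were 2.40% and 0.434%, so a single gene in lists of this size is near the background.

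Among myeloid effector genes the mark separated the groups at Mpo, which encodes myeloperoxidase of neutrophil granules. Mpo (chr11:87793784-87804412) was covered over 51.0% and 28.4% in WT VEH and 0% in both RH VEH libraries, and its intervals stood at percentile 50.7 in both lists. It was the only separating gene of 10 called in that list of 38. Fut4, the fucosyltransferase that makes the CD15 antigen of myeloid cells, was covered over 41.5% in both WT VEH libraries and 0% in RH VEH, at percentiles 54.1 and 66.7. Elane, S100a8, Ly6g and Csf1r, the other neutrophil and monocyte markers on the list, had no interval in any vehicle library. Stem and progenitor markers were called for 7, 7, 6 and 5 of 10 in WT VEH 1, WT VEH 2, RH VEH 1 and RH VEH 2, B cell markers for 2 of 5 in each and T cell markers for 4 of 5 in each, and stromal and endothelial markers for 4 of 5 in each. Erythroid markers gave 0, 1, 1 and 0 of 5, the 1 being Epor. Among the stem and progenitor markers, Cd34 was covered over 7.03% in WT VEH 2 and in RH VEH 1 alone, and Myb over 14.4% in WT VEH 1 alone. What part the makeup of the cells has in these calls was not tested.

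Forkhead and C2H2 zinc finger genes separated the groups at about the rate of all called genes, while the homeobox, Sox, T-box and bHLH lists, taken up below, held no separating gene. Foxp1, a forkhead transcription factor gene, was covered over 1.44% and 0.603% of its 597 kb in WT VEH and over 0% in RH VEH. The WT VEH intervals were 3.40 to 5.20 kb long. Of 34 called forkhead genes Foxp1 alone separated (2.94%). Of 140 called C2H2 zinc finger genes, 4 separated toward WT VEH (2.86%, against 2.40% of all called genes) and none toward RH VEH. Zfp800 had 1.62% and 2.04% of its span covered in WT VEH, and Zfp846 6.23% and 9.97%. The remaining pair, Zfp593 and Zfp959, came within 0.00900 kb and 0.0830 kb of RH VEH intervals, so that their calls turn on where an interval ends. No member of the blood transcription factor list separated the groups, of 34 called.

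Genes of transport and of the body surface gave further members. Of 194 called solute carriers, 9 separated toward WT VEH (4.64%) and 2 toward RH VEH (1.03%), against 2.40% and 0.434% of all called genes. Slc45a2, a melanosome transporter, was covered over 72.4% and 75.1% in WT VEH, and Slc26a9, an epithelial chloride transporter, over 33.4% and 16.7%. Slc22a4, an organic cation and ergothioneine transporter, had 9.04% and 4.69%, Slc25a33, a mitochondrial nucleotide carrier, 6.84% and 5.51%, and the zinc transporters Slc30a1 and Slc39a14 had 16.8% in both libraries and 6.36% and 4.28%. All were at 0% in RH VEH. The nearest RH VEH interval lay 0.696 kb from Slc30a1, 1.57 kb from Slc45a2, 2.51 kb from Slc22a4 and 3.62 kb from Slc26a9. For Slc39a14 and Slc25a33 it lay 10.1 and 55.5 kb away. Of 43 called keratin genes, 3 separated toward WT VEH (6.98%). Krt88 was covered over 100% and 83.9%, Krt15 over 67.8% and 100% and Krt23 over 14.0% and 3.43%. RH VEH intervals came within 5.92, 4.45 and 33.0 kb of these 3 genes, in the same order. Of 37 called collagen genes, 2 separated toward WT VEH (5.41%, against 2.40% of all called genes). Both encode collagen VI chains, Col6a6 with 8.53% and 5.65% and Col6a4 with 1.77% and 10.9% of the span covered in WT VEH. The nearest RH VEH intervals lay 130 kb from Col6a6 and 4.12 kb from Col6a4. Counts this small cannot set so short a list apart from the background.

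Smaller groups held a gene or a pair each. Il25, an epithelial cytokine, was covered over 100% and 16.1% in WT VEH with RH VEH intervals 1.89 kb away, and Ifi27l2b, an interferon-inducible gene, over 60.4% and 73.1%. Scn11a, a sodium channel of pain neurons, had 3.70% and 3.98%, and Fgf14, which binds sodium channels inside neurons, 0.467% and 0.540%. The olfactory receptor genes Olfr281 and Olfr159 had 100% in both libraries and 21.8% and 100%. In the 32 lists together 31 of the 188 genes and 5 of the 34 were members, and 186 of the 222 separating genes were in no list.

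Short genes were the ones covered whole. In both WT VEH libraries 100% of the span was covered at Tmsb10, which encodes the actin-binding thymosin beta 10, Nppb, the B-type natriuretic peptide gene of the heart, Fgfbp1, a carrier of fibroblast growth factors, Ripply1, a repressor in somite formation, Tex50 and Olfr281. Their spans were 0.936 to 2.97 kb. Tmsb10 and Nppb lay 127 and 46.0 kb from the nearest RH VEH interval, whereas Olfr281 lay 0.553 kb from it. Under metformin both Tmsb10 and Olfr281 were covered over 100% in all 4 libraries. Klk1b4, Gm13090, Ccdc89, Alpi and Pdzd3, the last an epithelial scaffold protein gene and Alpi the intestinal alkaline phosphatase gene, followed with mean cover of 98.1%, 94.6%, 90.1%, 88.8% and 88.5%. Over the 188 genes the median share of the span was 11.0%.

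Genes marked in R878H alone were fewer and included 2 of immune interest. Il4ra encodes the interleukin 4 receptor alpha chain. It was covered over 17.4% and 13.7% in RH VEH 1 and 2 and 0% in both WT VEH libraries, by intervals of 8.60 and 8.40 kb across its start, at percentiles 38.6 and 65.5, and no WT VEH interval lay within 154 kb. Dntt, the nucleotidyltransferase of V(D)J joining in lymphoid progenitors, was covered over 10.6% and 16.5% in RH VEH and 0% in WT VEH. Its intervals, of 3.20 and 5.0 kb, stood at percentiles 18.1 and 20.7. Dntt was the single separating gene of 17 called lymphoid genes (5.88%, against 0.434% of all called genes toward RH VEH and 2.40% toward WT VEH). A single gene cannot set so short a list apart from the background.

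Tall RH VEH intervals lay over Odf3b, a sperm tail protein gene, and the adjoining Tymp, the thymidine phosphorylase gene, on chromosome 15. A single interval reached both genes in each RH VEH library, from chr15:89376201 to 89381000 in RH VEH 1 and from chr15:89376201 to 89393400 in RH VEH 2. It covered 100% of Odf3b and 15.5% of Tymp in both and stood at percentiles 88.5 and 88.2, while the WT VEH libraries had none, with the nearest intervals 49.0 and 6.95 kb from Odf3b. Vmo1 was covered over 100% and 98.5%, BC024139 over 88.6% and 100%, Fam83c over 53.8% and 96.2%, the defensin gene Defb23 over 35.9% and 100%, and Sycn, a pancreatic granule protein gene, over 30.9% and 100%. Eppk1, Prss8, Klk15 and Pi16 had mean cover of 57.7%, 41.7%, 39.5% and 28.7%. Slitrk1, a neuronal adhesion gene, was covered over 32.9% and 90.3%. Slc6a18, a renal amino acid transporter gene, had 2.77% and 92.6%, and Slc27a6, a fatty acid transporter gene, 1.34% and 3.82%. Il4ra, Dntt, Prss8, Klk15, Slitrk1 and Slc27a6 lay at separating regions. Pi16 was called at different regions in the RH VEH libraries. The other genes named in these sentences on RH VEH met merged regions that a WT VEH library also called, outside the gene. In Slc6a18, Defb23 and Sycn most of the cover came from RH VEH 2.

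**Figure D2:**
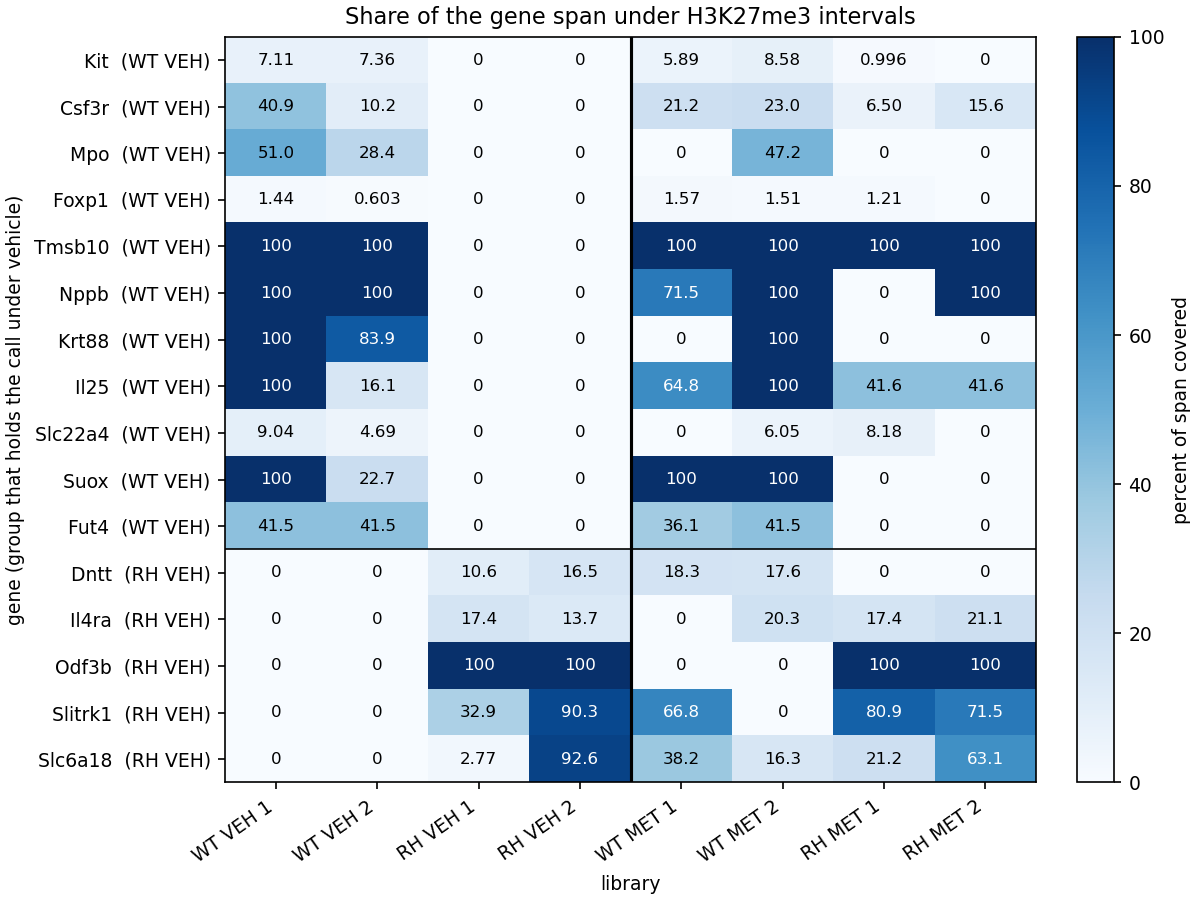
Percent of the gene span covered by intervals (color and number) for 16 named genes (rows) in the 4 vehicle libraries and the 4 metformin libraries (columns). Genes above the line were called in WT VEH alone and those below it in RH VEH alone. Fut4 and Suox are at 0% in both RH MET libraries. Kit is at 0.996% and 0% there, with an RH MET 1 interval across its start. Odf3b follows genotype in all 8 libraries, and Dntt is covered over 18.3% and 17.6% in WT MET and 0% in RH MET.

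Many of the separating genes met a merged region that a library of the other group also called, outside the gene. Of the 188 WT VEH genes, 108 lay at a merged region that itself separated the groups. Another 77 met no such region but met one that an RH VEH library also called, outside the gene. This class does not fix where in the region the gene lies. Its members include Ripply1 and Olfr281, covered over 100% in both WT VEH libraries. In the other 3 of the 188, Dipk2b, Acer1 and Gpr174, named after their values were seen, the WT VEH libraries called different regions of the gene. For RH VEH the numbers were 17, 15 and 2 (Pi16 and Zc3h12d). An RH VEH interval lay within 5 kb of 81 of the 188, with a median gap of 9.05 kb, and a WT VEH interval lay within 5 kb of 11 of the 34, with a median gap of 18.9 kb. The smallest overlaps were 3 bp in WT VEH and 32 bp in RH VEH. At Wdr24, a subunit gene of the nutrient-sensing GATOR2 complex, intervals of 27 and 24.8 kb with percentiles 97.0 and 99.1 reached over 34.8% and 7.33% of the span in WT VEH, and the nearest intervals of both RH VEH libraries ended 0.626 kb short of it. The edge of a tall domain carries the height of the whole domain, so a minimum height does not remove such genes. Under a minimum height, a minimum percentile, equal interval number and equal covered length, 35 WT VEH genes separated in each case. Of these, 32 belonged to the class of the 77, and of 7 such RH VEH genes 5 belonged to the class of the 15.

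Promoter windows separated the groups at 82 of the 159 WT VEH genes that have one in the table, among them Kit, Csf3r, Mpo, Fut4, Foxp1, Il20ra, Oprl1, Oprm1, Tmsb10 and Nppb. They did so at 10 of 23 RH VEH genes, among them Il4ra, Odf3b, Tymp and Vmo1. The 126 promoters of WT VEH alone had a median of 14.0 CG in 300 bases and the 16 of RH VEH alone 9.5, compared with 21.0 in the 3514 promoters called in all 4 vehicle libraries and 12 in the 12349 called in none. An observed-to-expected CG ratio of at least 0.6 was found in 48.4% and 31.2% of the separating promoters, in 64.3% of those called in all 4 and in 50.9% of all. The 154 promoters of the number 2 libraries alone had a median of 9.5 CG and a share of 39.0%.

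Separating regions lay away from genes more often than shared ones. Of the 462 WT VEH regions 20.6% covered a promoter window, 27.9% lay in a gene span without one and 51.5% lay outside, and of the 85 RH VEH regions the shares were 15.3%, 31.8% and 52.9%. Regions called in all 4 vehicle libraries gave 54.3%, 27.6% and 18.1%, and regions called in 1 library 9.58%, 37.2% and 53.2%. The median width of the merged region was 9.60 kb for WT VEH, 7.20 kb for RH VEH and 16.2 kb for the 6759 regions called in all 4. Widths and locations are those of the merged regions, which include the metformin libraries. A vehicle interval can thus miss a promoter window that its region covers.

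Within each library the separating regions were short and low. The 462 covered a median of 6.80 kb in WT VEH 1 and 5.0 kb in WT VEH 2, and the 85 covered 2.80 kb in RH VEH 1 and 5.60 kb in RH VEH 2. Regions called in all 4 libraries covered 11.2, 10, 6.60 and 11.4 kb in the same order of libraries. Median summit percentiles were 25.1 and 29.7 in WT VEH and 18.1 and 30.4 in RH VEH, against 68.1 to 77.6 for regions called in all 4. The pairs that cross genotype had medians from 15.8 to 38.4, so low summits were common to every set called in exactly 2 libraries.

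**Figure D3:**
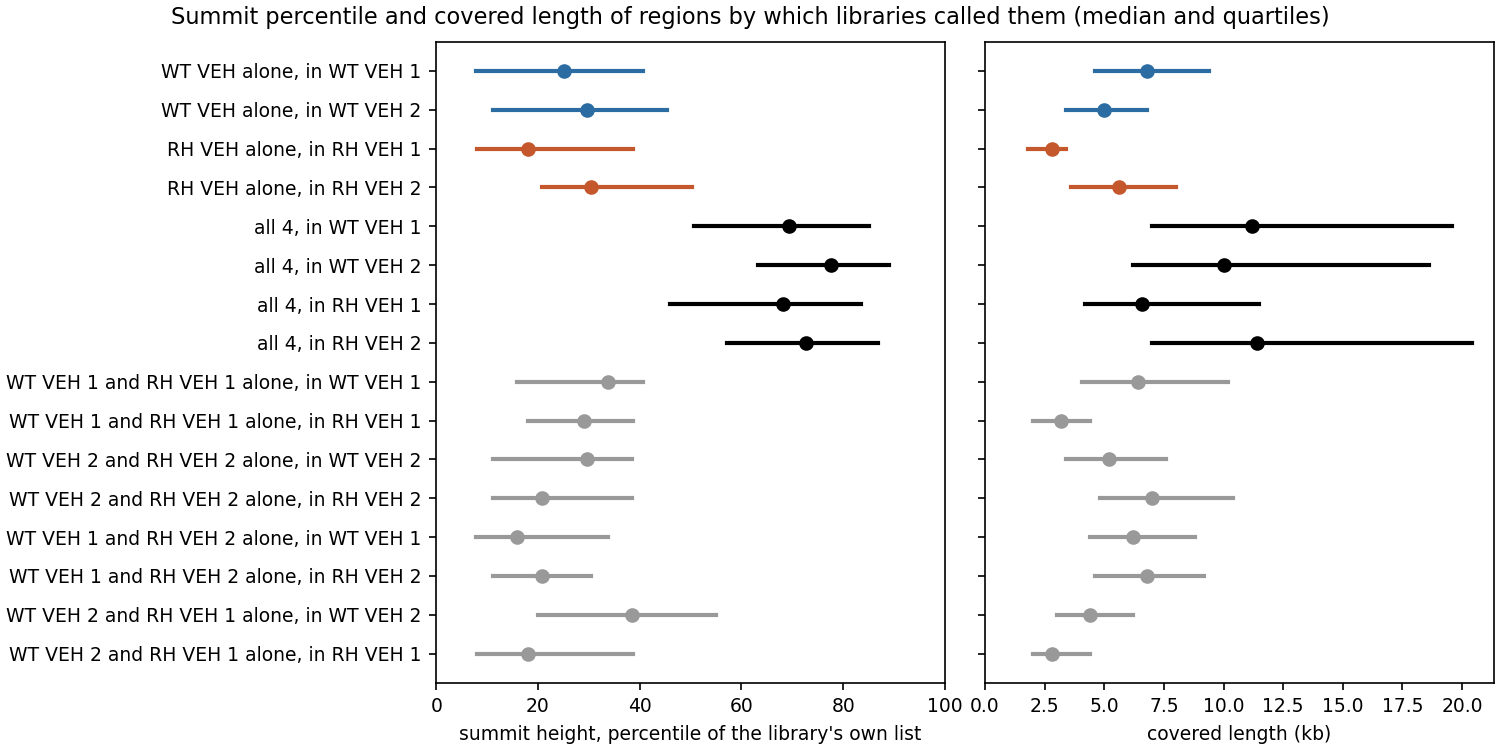
Summit percentile within the library's own list (left) and covered length in kb (right) of regions, by the libraries that called them. Points are medians and lines run between quartiles. Blue and orange sets (called in 1 genotype alone) sit with the gray sets that cross genotype, at median percentiles of 15.8 to 38.4, below the black set called in all 4 libraries.

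A few separating regions were high in both lists. In WT VEH the highest was a 5.40 kb region over the promoter of Cry1, a repressor of the circadian clock (chr10:85182801-85188200). It was covered over 2.60 and 2.0 kb at percentiles 69.4 and 72.5, with no RH VEH interval within 41.2 kb. A region over the promoter of Trip10, a Cdc42 effector gene, and Gpr108 (chr17:57248401-57253400) had 4.20 and 2.2 kb at percentiles 67.9 and 69.4. A region in Rph3al, a Rab effector gene of secretion (chr11:75960401-75973400), had 5.20 and 7.40 kb at percentiles 63.0 and 69.4, and a 0.60 kb region nearest to Gm2808 had 0.400 kb in both, with an RH VEH interval 2.2 kb away. These 4 separated the groups with each of the 4 stricter or equal lists. Next came regions in Sulf1 and nearest to Myl12b, with 55.0 as the lower of their percentiles. Several tied at 54.1, among them those over the promoters of Il20ra and Fut4 and in Abhd17c, Eepd1 and Sh3rf1. The intervals missed the Abhd17c promoter window in both WT VEH libraries and the Eepd1 window in WT VEH 2.

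Among the highest regions of RH VEH was one over the promoter of Ap1m2, a clathrin adaptor gene of epithelia (chr9:21311201-21313600), with 1.20 and 2.40 kb at percentiles 65.5 and 68.9. The following regions lay in Rxra, a retinoid X receptor gene, and Tmcc3 and nearest to Cox18 and Aldh3a1, with lower percentiles of 59.6, 51.5, 57.2 and 50.3. Several were tied at 45.9, among them those over Foxa3 and Irf2bp1, over the promoter of Maats1 and nearest to Ndfip1 and Camk1g.

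Homeobox, Sox, T-box, Wnt and bHLH genes, the best known targets of Polycomb, were marked in nearly every library. Of 183 homeobox genes 171 were called in all 4 vehicle libraries and none separated the groups. Over all genes 5535 of 7831 called were called in all 4, and with 2.40% and 0.434% separating, a list of this paragraph with 10 to 76 called genes and none separating is near the background. All 32 called Sox and T-box genes and all 59 called Wnt pathway genes were called in all 4, as were 54 of 55 called bHLH genes and 71 of 76 called cadherin genes. All 10 called cell cycle inhibitor and tumour suppressor genes were called in all 4, and none of 32 called imprinted genes or 16 called genes of the DNA methylation and Polycomb list separated the groups. That list does not hold every histone methylation gene, and Kdm3b, a histone demethylase gene, separated toward RH VEH and Kmt5b, a histone methyltransferase gene, toward WT VEH, both by the edge of a region. Altogether 15 of the 32 lists held no separating gene. Dnmt3a itself was covered over 6.95%, 7.09%, 0.709% and 8.19% in WT VEH 1, WT VEH 2, RH VEH 1 and RH VEH 2, which places RH VEH 1 apart and not the genotype. Actb and Gapdh, which the cells use throughout, had no interval.

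The 4 metformin libraries are separate samples of the same genotypes and were used to see whether the vehicle split returned. WT MET and RH MET are the same crosses after 1 month of metformin, a biguanide that inhibits mitochondrial complex I. Under metformin 666 regions (3.89%) and 182 genes (2.21%) were held by both WT MET libraries alone, and 242 regions (1.41%) and 76 genes (0.921%) by both RH MET libraries alone. The 462 WT VEH regions were called at 66.5% and 77.3% in WT MET 1 and 2 and at 60.2% and 50.9% in RH MET 1 and 2. The means were 71.9 ± 7.65% and 55.5 ± 6.58% (SD, n = 2 each), a difference of 16.3 percentage points in which the groups did not overlap (exact permutation p = 0.333, two-sided, the smallest possible). Regions called in exactly 2 vehicle libraries differed by 15.3 points. Among the pairs that cross genotype, the regions of the number 2 libraries differed by 17.8 points, of the number 1 libraries by 12, of WT VEH 1 with RH VEH 2 by 19.6 and of WT VEH 2 with RH VEH 1 by 5.98. The 85 RH VEH regions were called at 51.8% and 67.1% in WT MET and 69.4% and 54.1% in RH MET, and these groups overlapped (difference -2.35 points, exact permutation p = 0.667, two-sided).

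Counted by region, 39 of the 462 (8.44%) were again held by both libraries of the wild type and neither of R878H under metformin, and 5 went the opposite way. Among all regions called in exactly 2 vehicle libraries the share was 8.16%. The 39 are 5.86% of the 666. Of the 85 RH VEH regions, 5 returned (5.88%), 2.07% of the 242, and 6 went the opposite way. Among all regions called in exactly 2 vehicle libraries, 35 (1.80%) were held by RH MET alone. No metformin library called 34 of the 462 and 8 of the 85, and all 4 called 115 and 19. At Ap1m2 RH MET 1 alone had an interval. At Cry1 both WT MET libraries and RH MET 1 had intervals.

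**Figure D4:**
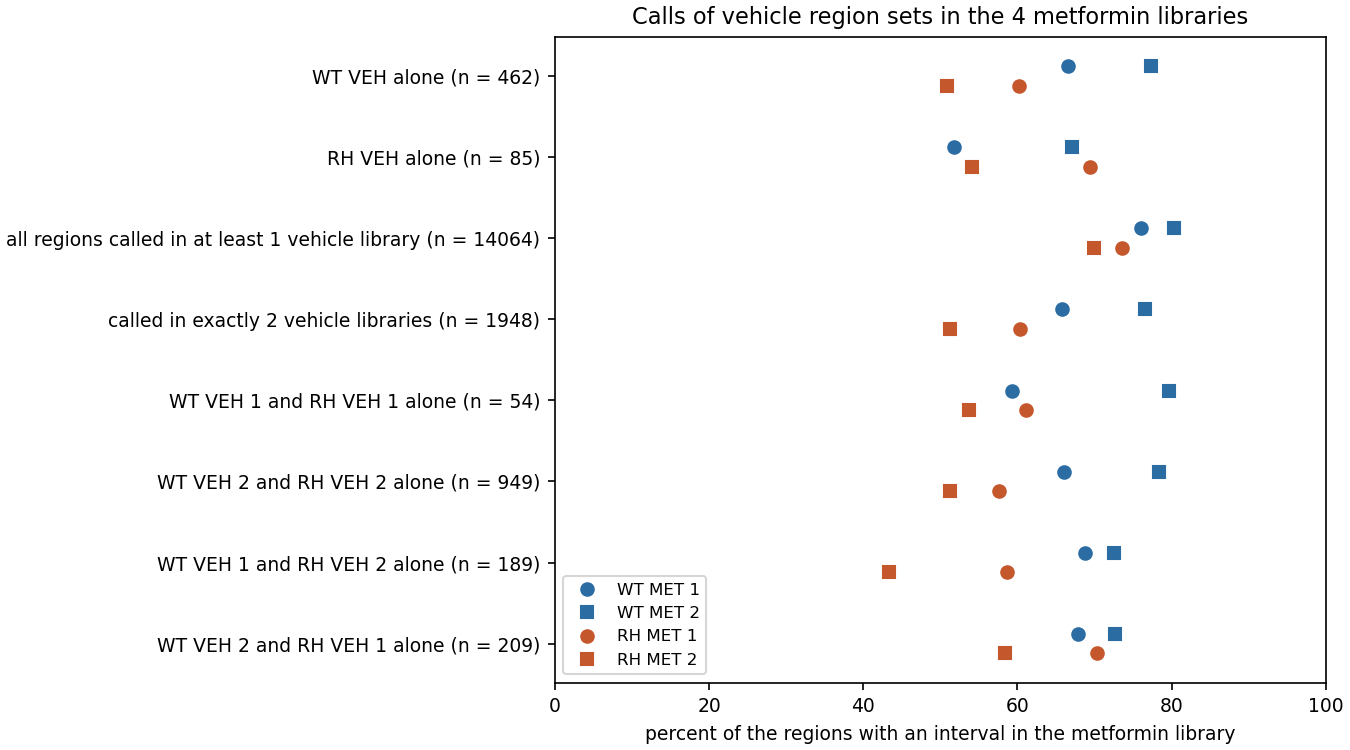
Percent of vehicle region sets (rows, with the number of regions) that carried an interval in each metformin library. Blue marks are WT MET and orange marks RH MET, circles number 1 and squares number 2. For the 462 WT VEH regions the WT MET libraries stand at 66.5% and 77.3% and the RH MET libraries at 60.2% and 50.9%, and the set called in exactly 2 vehicle libraries differs by 15.3 points against 16.3.

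By gene, 16 of the 188 returned (8.51%) and 3 reversed, and of the 34, 3 returned (8.82%) and 2 reversed. Of all 7831 called genes, most of them called in all 4 vehicle libraries, 138 (1.76%) were held by WT MET alone and 42 (0.536%) by RH MET alone. The share among genes called in exactly 2 vehicle libraries, the like of the one given for regions, was not computed. Genes that lie under the same interval are counted separately here. Suox, the mitochondrial sulfite oxidase gene, was covered over 100% and 22.7% in WT VEH and 100% in both WT MET libraries, with 0% in all 4 R878H libraries. Fut4 was covered over 41.5% and 41.5% in WT VEH and 36.1% and 41.5% in WT MET, with 0% in all 4 R878H libraries. Cilp, a cartilage matrix gene, had 61.0%, 57.1%, 31.2% and 46.8% in the 4 wild-type libraries and 0% in the others. Mybph, Gm4779, 8030474K03Rik, 4930438A08Rik, Nyx, Wdr24, Tmprss5, Lrguk and Abcb5 split in the same way, with mean WT VEH cover from 2.74% to 60.5%. Of these, Gm4779 and 8030474K03Rik meet the same region on X. Odf3b had 100% in both RH MET libraries and 0% in both WT MET libraries, Tymp 15.5% and 19.2% against 0%, and Dnase2a, a lysosomal nuclease gene, 37.4% and 84.9% against 0%. A single interval reached both Odf3b and Tymp in each R878H library, so they are not separate returns. Under vehicle Dnase2a had 103 bp (3.49%) covered in each RH VEH library, with a WT VEH interval 0.297 kb away.

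Kit did not return by the rule, but its cover of the span leaned the same way. It was covered over 5.89% and 8.58% in WT MET and over 0.996% and 0% in RH MET. Both WT MET values lay above both RH MET values, while RH MET 1 held an interval of 2.0 kb across the start. That interval stood at percentile 58.3 and covered the whole Kit window shown above. Csf3r did not return, with 21.2% and 23.0% in WT MET and 6.50% and 15.6% in RH MET. Mpo was covered over 47.2% in WT MET 2 and 0% in the other 3 metformin libraries. Il4ra had 0% and 20.3% in WT MET and 17.4% and 21.1% in RH MET.

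Regions shared by all 4 vehicle libraries were tested for a difference in covered length, on log2 base pairs centred on each library's median. None of 6759 regions was longer in RH VEH (0%) and none was shorter (0%) at an adjusted p under 0.05 (limma, Benjamini-Hochberg, smallest adjusted p = 0.747), and 98 and 172 had an unadjusted p under 0.05. With the replicate number as a block, an alternative fit, 3 regions were called longer and 24 shorter in RH VEH. The groups did not overlap at 29.3% of the regions, compared with 34.2% and 36.4% for the splits that cross genotype. The median absolute difference between group means was 0.25 on the log2 scale, below that between WT VEH 1 and 2 (0.31) and between RH VEH 1 and 2 (0.43). A difference of means over 2 libraries varies less by construction than one between single libraries. On simulated data with 2 libraries a group, 0 of 200 regions changed by 1 on the log2 scale were recovered and 133 of 200 changed by 2, so that changes of the smaller size could not have been called.

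The shared regions with the smallest p are given as values. A region in Mgat4f (chr1:134374201-134392000) was covered over 15.8 and 13.6 kb in WT VEH and 2.60 and 3.60 kb in RH VEH (log2 difference -1.97 ± 0.34 SE, limma adjusted p = 0.747). A region nearest to Plxdc1, an endothelial receptor gene (chr11:97891401-97919400), had 27 and 18.8 kb against 3.80 and 5.60 kb (-2.0 ± 0.35). A region over Rspo4, a Wnt agonist gene (chr2:151783601-151880400), had 56 and 58.6 kb against 8.2 and 25.8 kb (-1.69 ± 0.39). Regions at or nearest to Abtb2, Gm11543, Myo18b, Stpg1, Cfap77, Loxl4 and the chemokine gene Ccl1 also leaned toward WT VEH, with log2 differences from -2.24 to -1.56. In the other direction, a region nearest to Mamld1 on chromosome X (chrX:70889201-70927200) was covered over 2.0 and 3.0 kb in WT VEH and 6.0 and 36.8 kb in RH VEH (2.89 ± 0.57). A region in Grik4, a kainate receptor gene, had 7.40 and 6.2 kb against 11.8 and 20.2 kb (1.48 ± 0.33). Regions at Defb23, Kif26b, Opcml, Vmo1, Samd14, Abca3, Svs3b and Slc52a2 leaned the same way, by 1.31 to 1.75.

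**Figure D5:**
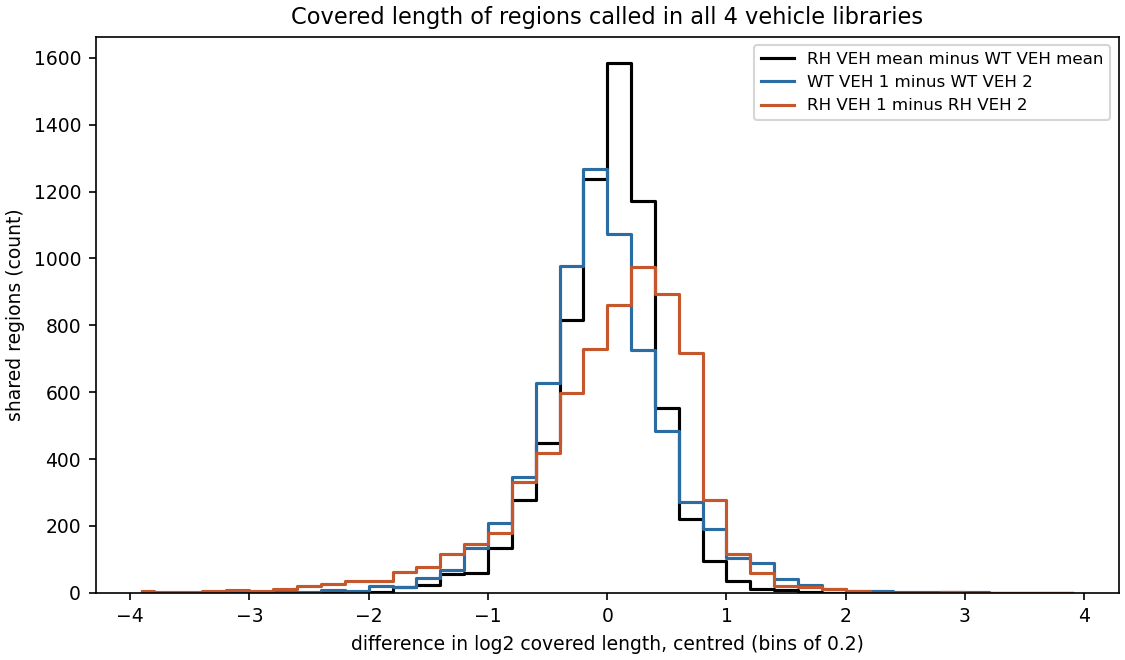
Distribution over 6759 shared regions of the difference in centred log2 covered length (horizontal axis, bins of 0.2; vertical axis, number of regions) between group means (black), between both WT VEH libraries (blue) and between both RH VEH libraries (orange). The black curve, with a median absolute difference of 0.25, a difference of means, is the narrowest, and the orange one, at 0.43, the widest.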

How the data were processed

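H3K27me3 chromatin immunoprecipitation sequencing of fixed cells was read on an Illumina NovaSeq instrument, per the labels' protocols. The submitters' processing notes name bcl2fastq 2.20, BWA 0.7.12 and mm10 without their roles. No source used here gives the interval caller, its settings, any depth adjustment or the use of the input library, and no input intervals were analysed here. Per the file headers, the authors deposited for each library an interval list and a summit list, and a merged list over all libraries. Intervals were thus called per library. The summit value is a score, the summit height, deposited as a whole number without a unit. It was used only to rank or filter intervals within a list, as the mid-rank percentile among that library's summits, where ties are common. The minimum height of 15 is the same number in every list, and RH VEH 1 has the lowest heights. Interval edges lie on a 200 bp grid with gaps of at least 800 bp. Read depth is unknown, so no counting error can be given.

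Merging the 8 lists again gave 18556 regions, all 18556 identical to the deposited ones. Gene spans and promoter windows came from RefSeq tables of GRCm38.p6, with 17492 genes holding a window. Percent of span is the share of base pairs under intervals. A gene is at a separating region where a merged region that meets its span also separates the groups in the same direction. Totals were compared by exact permutation over 6 assignments, two-sided, with 8 totals adjusted together. Covered length of the 6759 shared regions was tested with limma 3.58.1 in R 4.3.3 and tested on simulated data. Other steps used Python 3.11.15, numpy 2.4.6, pandas 2.3.3 and matplotlib 3.10.9.

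The members, the 32 gene lists and the rules for named genes were chosen with earlier results of these data known. Genes named were, per direction, the 12 with the highest mean cover, up to 6 separating members per list, up to 12 that the metformin libraries split alike, the 10 regions highest by the lower of their summit percentiles, regions that pass all 4 interval alternatives, the 10 smallest p of covered length, and Kit, Csf3r, Mpo, Dntt, Dnmt3a, Actb and Gapdh. Alternatives were a minimum height, the 25th percentile, equal interval number (11620) and equal covered length (80.0 Mb), autosomes, other overlap rules, and each library left out. The libraries were treated as not paired, and the labels do not say whether equal replicate numbers mark a shared batch. In covered length, number 1 minus number 2 correlated at 0.09 between the groups across the 6759 shared regions. That value leaves out regions that differ in presence, 949 in the number 2 libraries alone and 54 in the number 1 libraries alone. It cannot decide whether the libraries are paired. The labels do not say that replicates came from separate mice, so the spread may be technical. A region that the rule for named regions selects is not reported here.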

Additional observations from a re-analysis of the deposited data

Results flagged for a closer look

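The 5 genes below were called in both libraries of a genotype and neither of the other under vehicle, and the opposite way under metformin, so that the genotype difference changed its sign between treatments. The difference between treatments was not tested, and 2 libraries a group allow no outlier check.

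Dntt, the lymphoid nucleotidyltransferase gene, differed by 13.6 percentage points of its span between RH VEH and WT VEH (RH minus WT) and by -17.9 points under metformin, where WT MET 1 and 2 had 18.3% and 17.6% covered. Its WT MET intervals reached over the promoter window shown above and its RH VEH intervals did not. Olfr159, an olfactory receptor gene, differed by -60.9 points under vehicle and 63.4 under metformin, with 63.4% covered in both RH MET libraries. Saa4, a serum amyloid A gene, differed by -13.2 points under vehicle and 39.2 under metformin (17.5% and 60.9% in RH MET). Hilpda, a lipid droplet gene induced by hypoxia, differed by -10.6 points under vehicle and 3.81 under metformin, with overlaps as short as 113 bp. Kdm3b, a histone demethylase gene, differed by 1.07 points under vehicle and -0.433 under metformin, and WT VEH intervals ended 0.0300 kb from its span.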

How the results depend on the processing

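The excess of WT VEH over RH VEH depended on the lists. With equal covered length the counts in WT VEH alone and RH VEH alone were 16 and 101 regions, 55 and 55 genes, and 37 and 40 promoters. With equal interval number they were 302 and 158 regions, 161 and 43 genes, and 25 promoters in RH VEH alone. With a height of at least 15, RH VEH alone held 6 regions, 13 genes and 6 promoters. With cover of at least 50% of the region, 239 and 20 regions separated the groups. The 25th percentile, autosomes alone, merging over the vehicle libraries, a 1000 bp overlap and a span widened by 2500 bp moved no count by over 1.5 times. A library standing alone for its group gave 656 to 2342 regions in WT VEH alone and 150 to 1063 in RH VEH alone, 280 to 662 and 63 to 254 genes, and 187 to 477 and 37 to 162 promoters. Without RH VEH replicate 1 the direction turned for regions (656 against 1063) and not for genes (280 against 254) or promoters (187 against 162). In each leave-out the shortened group needs a call in a single library and the other group needs a call in both. The counts set against each other thus follow unlike rules, which favours the shortened group. The promoter counts, and the leave-outs for totals and metformin calls, were added after seeing the data.

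The group difference in interval number, -1654, ran from -3780 to 470 and was above 0 without WT VEH replicate 2. That in covered length, -25.7 Mb, ran from -63.2 to 11.8 Mb and was above 0 without RH VEH replicate 1. The metformin difference for WT VEH regions ran from 10.9 to 21.8 points. That for RH VEH regions ran from -10.0 to 5.29, was 5.29 without WT MET replicate 1 and also without RH MET replicate 1, and was 0 with an equal interval number. For covered length, the replicate block called 3 regions longer and 24 shorter in RH VEH, and leaving out WT VEH replicate 2, which left WT VEH 1 assumed to vary like the RH VEH libraries, called 3 and 1 (0 to 3 and 0 to 1 over the leave-outs). No centring, quantile normalization and the other alternatives called 0 and 0. Among the separating genes, 66 of 222 separated with a height of at least 15, 148 above the 25th percentile, 168 with equal number, 43 with equal covered length and 152 with a 1000 bp overlap. Unknown read depth limits every absence of an interval.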

Other observations

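Promoter windows separated the groups at further genes whose spans did not, 44 in WT VEH and 6 in RH VEH. The 6, chosen after their values were seen, were Car5a, a mitochondrial carbonic anhydrase gene, Otog and Ush1c, genes of the inner ear, Slc5a10, a sugar transporter gene, and the zinc finger genes Zfp36l3 and Zfp660. Car5a and Otog have 0 CG in the 300-base window, Slc5a10 has 6, Ush1c and Zfp36l3 have 9 each and Zfp660 has 10.

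The separating regions lay on every autosome and on X. WT VEH regions were 4.67% of called regions on chromosome 5 (39 of 836), 4.60% on chromosome 8 (30 of 652), 1.30% on chromosome 3 (7 of 540) and 2.18% on X (43 of 1974). RH VEH regions ran from 0.217% on chromosome 11 to 1.35% on chromosome 19. The share of all cover that lay on X was 6.74% and 10.5% in WT VEH and 4.02% and 12.2% in RH VEH, so that the libraries of a group differed more than the groups.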
